A study of Mus musculus with 24 samples.

Results

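The genes described here carry salt, acid, bicarbonate and water across the lining of the colon. They were chosen by name as 10 genes of colonocyte transport, namely Slc26a3, Slc9a3, Car1, Car4, Aqp8, Scnn1a, Scnn1b, Scnn1g, Cftr and Slc12a2, out of 22911 gene symbols that the array could name. Every array feature (probe) whose accession belonged to one of these symbols was used, which gave 14 probes, with 2 probes each for Slc9a3, Car1, Scnn1a and Cftr. Values are given as log2 normalized signal, on which a difference of 1 is a 2-fold difference, and levels are compared between arrays for the same probe only.

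RNA of colon tissue from 24 C57BL/6J mice was hybridized to 1-color arrays, with 1 mouse per array and 4 mice in each of 6 groups. The groups were males (M) and females (F) after a sham operation and ovariectomized females (F(OVX)), each kept for 14 weeks on a diet low in fat (LFD, 10% of kcal) or high in fat (HFD, 45% of kcal). All 6 groups had received azoxymethane (AOM, 10 mg/kg), which causes colon tumors, followed by dextran sulfate sodium (DSS), which injures the colonic epithelium, in 3 cycles at 1.5%. The mice were bought at 7 weeks of age, and tissue was taken 75 days after AOM. The methods state that the animals for the arrays were picked for a body weight near the mean of their group. They also state that the study had no healthy control group.

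In the colon, sodium chloride is absorbed by an apical sodium/hydrogen exchanger that works side by side with an apical chloride/bicarbonate exchanger, and carbonic anhydrases supply the protons and bicarbonate. In the distal colon, sodium also enters through the epithelial sodium channel ENaC, whose α, β and γ subunits are induced or activated by the steroid hormone aldosterone, and water follows the salt. Crypt cells secrete chloride through the channel CFTR, which is fed from the blood side by the cotransporter NKCC1. Surface colonocytes mainly absorb and crypt cells mainly secrete, and many of these genes also differ between the proximal and the distal colon.

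The epithelial origin of the RNA was plain on every array, since all 10 epithelial markers (Epcam, Cdh1, Cdx2 and others) were well above background on all arrays of each group, and their summed signal lay between 17.9 and 18.5. The pieces were not alike in position along the colon. Hoxb13, a homeobox gene of the most distal colon, had a signal of 2.18 on replicate 1 and 5.05 on replicate 2 of M + LFD, whereas the other 22 arrays lay between 12.60 and 14.80. The summed signal of 10 anterior Hox genes was highest on the same arrays, at 14.5 and 13.7, against 11.3 to 12.7 elsewhere. Calls that use M + LFD are therefore given with and without these 2 arrays. Each sex or surgery had a slide of its own, with LFD in one row and HFD in the other, so that sex and slide, and diet and row, cannot be told apart. In RNA of whole tissue, fewer cells of a type and less RNA per cell cannot be told apart.

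RefSeq promoter entries (GRCm38.p6) matched 7 of the 10 genes, and Car1, Scnn1a and Slc12a2 had none. The 250 bases before the gene start are shown for Slc26a3, Car4 and Aqp8, because Aqp8 had its highest correlations between arrays with Car4 and Slc26a3, neither past the adjusted threshold, and for Scnn1g, whose signal ran from background to well above it. They lie on the plus strand at chr12:31437969-31438218 for Slc26a3, chr11:84957504-84957753 for Car4, chr7:123462044-123462293 for Aqp8 and chr7:121734229-121734478 for Scnn1g. Capitals mark matches on either strand to 4 short motifs: TTTAT (the core of CDX binding), TATAAA (the TATA box), CAAAG (the core of HNF4 binding) and TGTTCT (a short site of steroid receptors).
Slc26a3: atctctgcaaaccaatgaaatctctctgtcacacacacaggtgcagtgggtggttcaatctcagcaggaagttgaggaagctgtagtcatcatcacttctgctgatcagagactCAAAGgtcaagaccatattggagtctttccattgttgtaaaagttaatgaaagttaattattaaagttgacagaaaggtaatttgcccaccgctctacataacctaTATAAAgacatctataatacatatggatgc
Car4: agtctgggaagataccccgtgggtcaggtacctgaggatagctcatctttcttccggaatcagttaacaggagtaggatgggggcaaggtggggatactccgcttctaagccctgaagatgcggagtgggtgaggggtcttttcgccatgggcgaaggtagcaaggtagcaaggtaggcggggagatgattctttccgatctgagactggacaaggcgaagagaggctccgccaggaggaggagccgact
Aqp8: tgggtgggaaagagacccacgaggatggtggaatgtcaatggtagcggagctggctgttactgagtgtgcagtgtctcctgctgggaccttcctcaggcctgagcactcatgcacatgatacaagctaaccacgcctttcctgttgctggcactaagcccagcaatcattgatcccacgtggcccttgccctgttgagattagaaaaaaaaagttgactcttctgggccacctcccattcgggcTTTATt
Scnn1g: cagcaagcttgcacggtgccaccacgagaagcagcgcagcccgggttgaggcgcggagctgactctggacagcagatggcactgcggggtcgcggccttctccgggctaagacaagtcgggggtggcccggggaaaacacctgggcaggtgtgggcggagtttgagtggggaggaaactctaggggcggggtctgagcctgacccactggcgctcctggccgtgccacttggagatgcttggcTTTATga
The Slc26a3 window held TATAAA 30 bases before the start, which also contains the reverse complement of TTTAT, and CAAAG 136 bases before it. Aqp8 and Scnn1g each held TTTAT within 10 bases of the start, at 6 and 7 bases, and the Car4 window held none of the 4 motifs. Of all 32841 promoter windows of this length, 37.3% held TTTAT, 12.4% TATAAA, 48.6% CAAAG and 16.1% TGTTCT, so single matches are common. The share of G and C bases was 38.8% for Slc26a3, 52.4% for Aqp8, 56.4% for Car4 and 65.2% for Scnn1g.

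The first question was which of these genes changed with HFD in each of M, F and F(OVX). The study's thresholds were used to call differentially expressed genes (DEGs), namely 1.5-fold or more with a limma p under 0.05 before adjustment, and Benjamini-Hochberg adjusted p-values stand beside. A gene was tested if all 4 arrays of either diet carried the scanner software's flag for signal well above background on its brightest probe, and 8 of the 10 genes were tested. In M, 2 of these 8 were DEGs, Slc26a3 and Scnn1a, both higher on HFD, where 4.28% of all 20516 genes tested were DEGs. In F, 0 of 8 were DEGs, where 1.20% of 22085 were, and in F(OVX) 0 of 8, where 2.18% of 19211 were. The methods' t-test also gave 2, 0 and 0. At an unadjusted p under 0.05 alone limma gave 2 of 8 in M, 0 of 8 in F and 1 of 8 in F(OVX), which was Cftr. The shares of all genes at this threshold were 6.12%, 2.89% and 3.70%. The median HFD minus LFD difference of the 8 genes was 0.29 in M, -0.14 in F and 0.35 in F(OVX), and that of all genes tested was 0.01, -0.01 and 0.01. No gene on the array passed an adjusted p of 0.05 in any of the 3 comparisons.

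**Figure D1:**
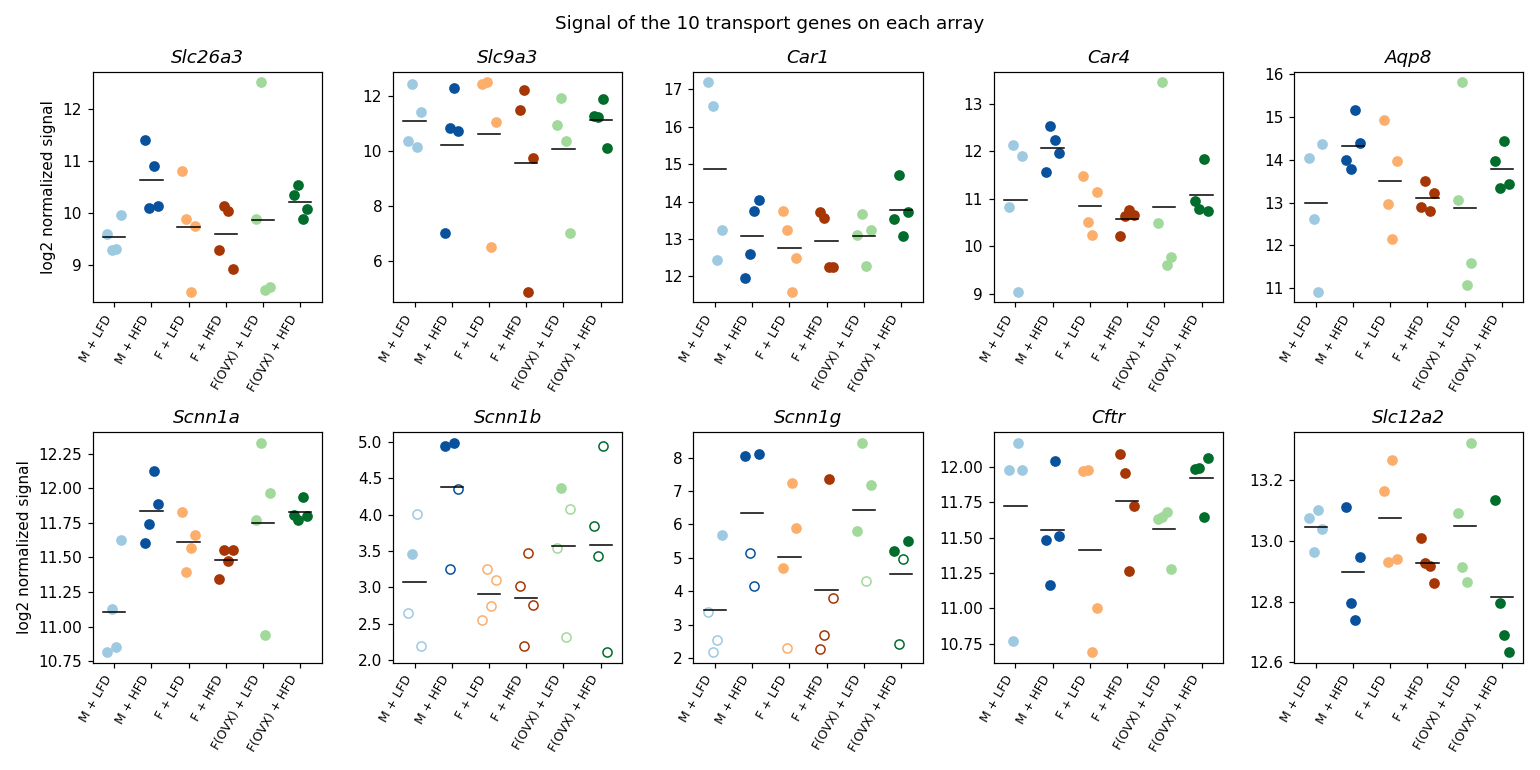
Log2 normalized signal of the brightest probe of each of the 10 genes (vertical axes, scaled per gene and not starting at 0) on the 24 arrays by group. Each point is 1 mouse, filled where the probe was well above background on that array, and the line is the mean of the 4 mice. Slc9a3 drops to 4.90 to 7.03 on 4 arrays of 4 groups, Car1 stands out on 2 arrays of M + LFD, and Slc12a2 spans only 12.63 to 13.32.

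Slc26a3 encodes the apical chloride/bicarbonate exchanger DRA, whose loss in humans causes congenital chloride diarrhea. It read 9.58, 9.29, 9.31 and 9.95 in M + LFD and 11.41, 10.10, 10.90 and 10.13 in M + HFD. All 4 HFD arrays lay above all 4 LFD arrays. The difference was 1.1 ± 0.32 (SE, n = 4 per group) on the log2 scale, or 2.15-fold, with limma p = 0.0076, adjusted p = 0.80 and an exact permutation p = 0.0286, the smallest that 4 against 4 arrays can give. Without M + LFD replicates 1 and 2 the difference was 1.0 ± 0.43 (SE, n = 4 and n = 2), exact permutation p = 0.13, where 4 against 2 arrays can give no less than 0.067, and the gene was no longer called. In the fit of all 24 arrays, which shares 1 estimate of the spread, the same difference was not called. The summed signal of 13 other surface colonocyte markers (Krt20, Lypd8 and others) ranged from 18.3 to 19.2 in M + LFD and from 18.1 to 18.8 in M + HFD, where all 13 were well above background on every array, and its part in the difference was not tested.

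In females the signal of Slc26a3 overlapped between diets. It read 10.80, 9.89, 8.48 and 9.75 in F + LFD and 9.27, 10.13, 10.03 and 8.92 in F + HFD, a difference of -0.14 with a 95% interval from -1.25 to 0.97. Its range was 8.51 to 12.52 in F(OVX) + LFD and 9.88 to 10.54 in F(OVX) + HFD. The F(OVX) difference was 0.34, with a 95% interval from -1.45 to 2.13, and F(OVX) + LFD replicate 2 had the highest signal of all 24 arrays. Leaving out F(OVX) + LFD replicate 2 raised the difference to 1.22, as leaving out the highest LFD array must, and the gene then passed the thresholds. Leaving out F(OVX) + LFD replicate 3 instead turned the difference to -0.11.

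Slc9a3 encodes NHE3, the apical sodium/hydrogen exchanger. Its brightest probe, above background throughout, had the widest range of the 10 genes, 7.58 on the log2 scale, or 191-fold. It read 7.02 on M + HFD replicate 1, 6.52 on F + LFD replicate 3, 4.90 on F + HFD replicate 3 and 7.03 on F(OVX) + LFD replicate 4, and between 9.73 and 12.48 on the other 20 arrays. The low arrays came from 4 of the 6 groups and from both diets. In the same order, their summed signal of posterior Hox genes was 14.98, 14.68, 14.53 and 14.26. It was also 14.62 on F(OVX) + LFD replicate 2, which was not low in Slc9a3. The part of position along the colon in these low values was not tested. The HFD minus LFD difference was -0.87 ± 1.04 in M, -1.04 ± 1.83 in F and 1.06 ± 0.93 in F(OVX) (SE, n = 4 per group), none of which passed the test. Without M + HFD replicate 1 the M difference was 0.20, and without F + HFD replicate 3 the F difference was 0.52. As a description, the replicate numbers in F were read as pairs for this gene alone, on correlations in these same data and not on the labels. The HFD array was lower in each of these 4 pairs, with differences of -0.94, -0.28, -1.62 and -1.32. The fit with the replicate as a block called Slc9a3, and this fit called 589 genes in all, against 264 without the block. Its other probe, to a different transcript record, was well above background on 8 of 24 arrays only, read 2.01 to 5.76, and followed the first with r = 0.79 over the 20 arrays that were not low in it.

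Car1 encodes a cytosolic carbonic anhydrase abundant in colonocytes. It read 17.19, 16.56, 12.44 and 13.24 in M + LFD and 11.95, 12.60, 13.74 and 14.03 in M + HFD. The first pair of M + LFD values came from the arrays low in Hoxb13, and Car1 stayed between 11.59 and 14.70 on the other 22 arrays. The M difference was -1.77 ± 1.08 (SE, n = 4 per group), exact permutation p = 0.31 and adjusted p = 0.86. The fit of all 24 arrays called Car1 in M, and the difference turned to 0.24 ± 0.62 (SE, n = 4 and n = 2) without those arrays. The difference was 0.18 (95% interval -1.05 to 1.40) in F and 0.69 (95% interval -0.18 to 1.56) in F(OVX). The second Car1 probe followed the first with r = 0.99 and gave -1.77, 0.19 and 0.54.

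**Figure D2:**
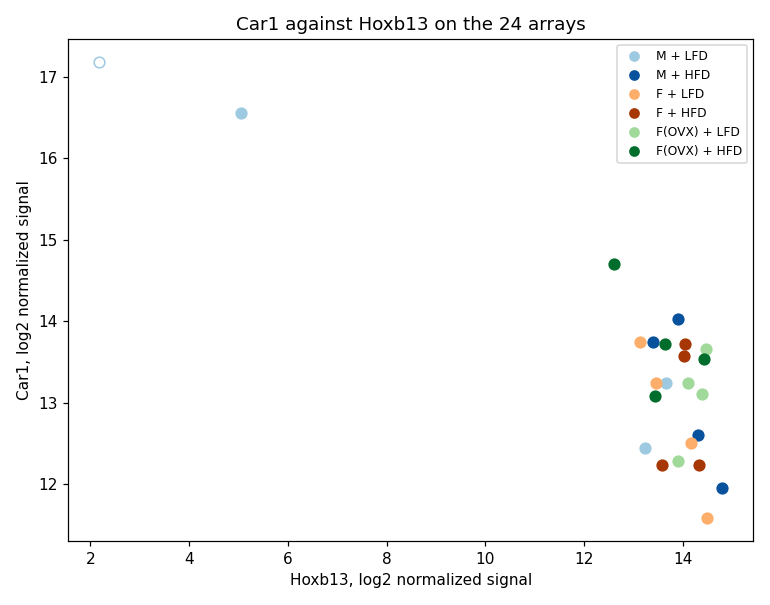
Log2 normalized signal of Car1 (vertical axis) against Hoxb13 (horizontal axis) on the 24 arrays, colored by group, with an open symbol where Hoxb13 was not well above background. M + LFD replicates 1 and 2 lie alone at the upper left, with Hoxb13 at 2.18 and 5.05 and Car1 at 17.19 and 16.56.

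Car4 encodes the carbonic anhydrase that is anchored to the apical membrane, and Aqp8 a water channel of surface colonocytes. Car4 read 10.82, 12.13, 9.05 and 11.89 in M + LFD and 11.56, 12.54, 12.22 and 11.96 in M + HFD. Aqp8 read 14.04, 12.62, 10.92 and 14.36 in M + LFD and 13.98, 13.79, 15.16 and 14.39 in M + HFD. For both genes the diets overlapped, and M + LFD replicate 3 was the lowest array of the series. The M difference was 1.1 ± 0.62 for Car4 and 1.34 ± 0.72 for Aqp8 (SE, n = 4 per group), with exact permutation p = 0.17 and 0.23 and adjusted p = 0.84 and 0.83. Without M + LFD replicates 1 and 2 these were 1.60 ± 0.74 and 1.69 ± 0.91 (SE, n = 4 and n = 2), exact permutation p = 0.13 and 0.20.

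In F, Car4 was 0.27 lower on HFD on the log2 scale (95% interval -0.91 to 0.36) and Aqp8 0.39 lower (95% interval -1.63 to 0.84). In F(OVX), Car4 was 0.25 higher (95% interval -1.50 to 2.00) and Aqp8 0.92 higher (95% interval -1.14 to 2.97). F(OVX) + LFD was the most scattered group for both, with Car4 at 10.49, 13.45, 9.61 and 9.78 and Aqp8 at 13.05, 15.81, 11.07 and 11.58. Replicate 2 of this group had the highest signal of the series for Slc26a3, Car4, Aqp8, Scnn1a and Scnn1g. Without it the F(OVX) differences of Car4, Aqp8 and Slc26a3 were 1.12, 1.89 and 1.22. Each then passed the thresholds, but leaving out the highest LFD array raises the difference by construction. The share of all genes called in this setting was not computed, so these calls are a description. Without F(OVX) + LFD replicate 3 instead, the differences of Car4, Aqp8 and Slc26a3 were -0.16, 0.31 and -0.11, none of them called.

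Scnn1a encodes the α subunit of ENaC. Its brightest probe read 10.82, 11.13, 10.85 and 11.63 in M + LFD and 11.60, 11.74, 12.13 and 11.89 in M + HFD. Only M + LFD replicate 4 reached into the HFD range. The difference was 0.73 ± 0.21 (SE, n = 4 per group), or 1.66-fold, with limma p = 0.0079, adjusted p = 0.80 and exact permutation p = 0.057. Without M + LFD replicates 1 and 2 it was 0.60 ± 0.27 (SE, n = 4 and n = 2), exact permutation p = 0.13, and was not called. In F the probe stayed between 11.34 and 11.83, and the difference was -0.13 (95% interval -0.43 to 0.17). In F(OVX) it was 0.08 (95% interval -0.53 to 0.68).

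The second Scnn1a probe did not follow the first, with r = -0.03 over the 24 arrays, although it was well above background on all of them. It read 7.58, 7.92, 7.62 and 7.54 in M + LFD and 7.58, 8.07, 7.97 and 7.89 in M + HFD, a difference of 0.21 ± 0.16 (SE, n = 4 per group), limma adjusted p = 0.89. The change of Scnn1a in M thus rested on 1 of its 2 probes.

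The β and γ subunits, Scnn1b and Scnn1g, were near background on many arrays. Scnn1b was well above background on 4 of 24 arrays, M + LFD replicate 2, M + HFD replicates 1 and 3 and F(OVX) + LFD replicate 2, and read 2.11 to 4.99. Scnn1g was well above background on 12 of 24 arrays and ran from 2.18 to 8.45. It read 3.39, 2.18, 2.54 and 5.69 in M + LFD, of which only the last was well above background, and 8.04, 5.14, 4.16 and 8.10 in M + HFD, of which the first and last were. In F + LFD it read 4.70, 2.31, 7.25 and 5.90, and in F + HFD 2.26, 2.70, 7.37 and 3.81. In F(OVX) it read 5.81, 8.45, 4.31 and 7.19 on LFD and 5.21, 2.42, 4.98 and 5.49 on HFD. The mean was higher on HFD in M (6.36 against 3.45) and lower on HFD in F (4.04 against 5.04) and F(OVX) (4.52 against 6.44), with overlapping arrays in each. No group had 4 arrays well above background for either gene, so neither was tested. The exact permutation p of the diet for Scnn1g was 0.086 in M, 0.54 in F and 0.20 in F(OVX). That of the M minus F(OVX) difference of 4.82 was 0.015. These p-values are unadjusted and given as a description. The probe was well above background on 1 of 4 M + LFD and 2 of 4 M + HFD arrays. In F(OVX) it was so on 3 of 4 LFD and 2 of 4 HFD arrays.

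Cftr encodes the apical chloride channel that is mutated in cystic fibrosis, and Slc12a2 the basolateral sodium-potassium-chloride cotransporter NKCC1. Cftr read 11.63, 11.65, 11.69 and 11.28 in F(OVX) + LFD and 11.99, 11.99, 11.65 and 12.06 in F(OVX) + HFD. The difference of 0.36 ± 0.16 (SE, n = 4 per group), exact permutation p = 0.086 and limma adjusted p = 0.999, was below the fold threshold, and F(OVX) + HFD replicate 3 overlapped with LFD. It was -0.17 in M (95% interval -0.93 to 0.58), or -0.53 without M + LFD replicates 1 and 2, and 0.35 in F (95% interval -0.42 to 1.12). The dimmer Cftr probe followed the brighter with r = 0.71 and gave -0.43, 0.99 and 0.06 in M, F and F(OVX), none of which passed the test.

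Slc12a2 was the steadiest of the 10 genes, with an SD of 0.17 over the 24 arrays, against 0.43 for Cftr and 2.05 for Slc9a3. It read 13.07, 12.96, 13.10 and 13.04 in M + LFD and 13.11, 12.79, 12.74 and 12.95 in M + HFD. The HFD minus LFD difference was -0.15 in M, -0.15 in F and -0.23 in F(OVX). Averaged over M, F and F(OVX) in the fit of all 24 arrays it was -0.18 ± 0.07 (SE, n = 12 arrays per diet), or 1.13-fold, below the fold threshold. The limma p was 0.028 and the adjusted p 0.985. With this average 0 of 8 genes were DEGs by limma, where 0.777% of all genes were. At an unadjusted p under 0.05 alone there was 1 of 8, against 4.19% of all genes.

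**Figure D3:**
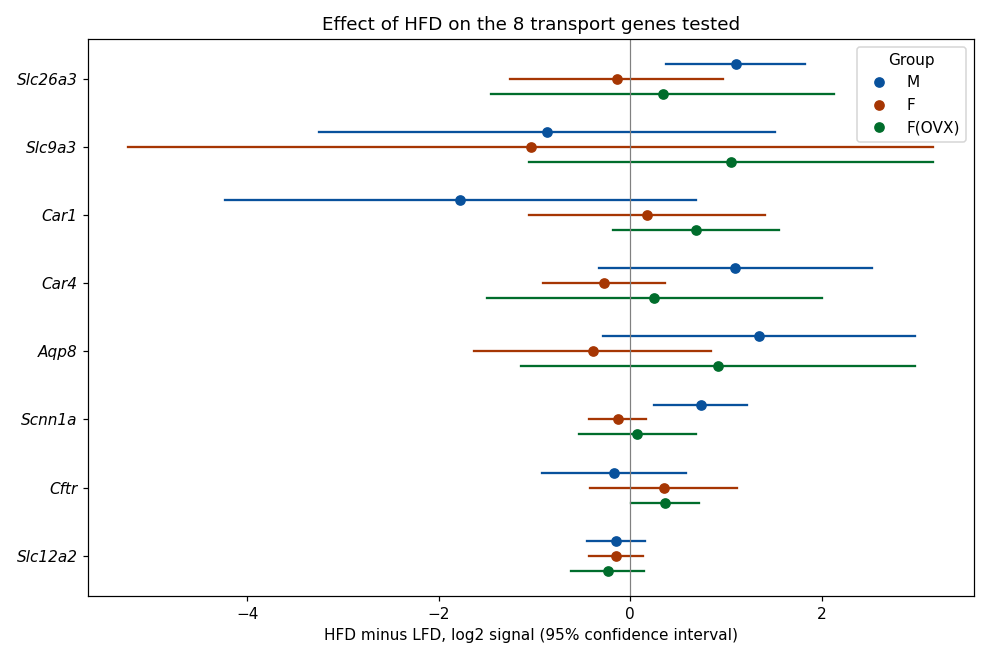
HFD minus LFD difference in log2 signal (horizontal axis) for the 8 genes tested, in M, F and F(OVX). Points are limma estimates from 4 against 4 arrays and lines their 95% confidence intervals. The intervals of Slc26a3 and Scnn1a in M and of Cftr in F(OVX) lie above 0, and all others include 0.

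Whether the diet effect differed between the groups was tested as a contrast in 1 fit of all 24 arrays. Between M and F, 1 of 8 genes differed, where 2.93% of all genes did. This was Scnn1a, whose diet effect was 0.87 ± 0.31 (SE, n = 4 per group) higher in M than in F, with limma p = 0.011, adjusted p = 0.98 and exact permutation p = 0.0086. Without M + LFD replicates 1 and 2 it was 0.73 and no longer called, while Cftr was called instead. All Scnn1a contrasts here use its brightest probe. The second Scnn1a probe changed with HFD by 0.21 in M, 0.18 in F and 0.06 in F(OVX), and its contrasts were not computed. Between M and F(OVX), 2 of 8 differed, where 6.29% of all genes did, and these comparisons share the M arrays. The diet effect of Scnn1a was 0.66 ± 0.31 higher in M than in F(OVX), and the M minus F(OVX) difference of Car1 was -2.46 ± 1.14 (SE, n = 4 per group). Their adjusted p was 0.635 and 0.633, with exact permutation p of 0.13 and 0.10. Without the 2 arrays they were 0.53 and -0.45 and were no longer called, and leaving out a single array lost the call in 11 of 16 cases for Scnn1a and 10 of 16 for Car1. Between F(OVX) and F, 0 of 8 differed by limma, where 1.48% of all genes were called. At an unadjusted p under 0.05 alone there were 0 of 8, against 2.09% of all genes.

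The sexes were compared on the same diet, with the reservation that sex and slide cannot be told apart. On LFD, 1 of 8 genes was called between F and M, where 5.05% of all genes were. This was Car1, which was 2.09 ± 0.81 lower in F (SE, n = 4 per group), exact permutation p = 0.26 and adjusted p = 0.41, and the difference shrank to -0.07 without M + LFD replicates 1 and 2. On HFD, 1 of 8 was called, where 7.49% of all genes were. This was Car4, which read 11.56, 12.54, 12.22 and 11.96 in M + HFD and 10.23, 10.63, 10.76 and 10.67 in F + HFD. The difference was -1.50 ± 0.66 (SE, n = 4 per group), exact permutation p = 0.0286 and adjusted p = 0.30. Of 10 proliferation markers 8 were called higher in F on HFD, with a summed signal of 14.3 to 15.2 in F and 13.2 to 14.5 in M, and its part in the Car4 difference was not tested. The call of Car4 was lost without any 1 of 5 of the 8 arrays, M + HFD replicates 2 or 3 or F + HFD replicates 1, 2 or 4, with a range of -1.67 to -1.34.

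The arrays of Aqp8 and Scnn1a also did not overlap between M and F on HFD, each with exact permutation p = 0.0286, though neither was called by limma. Aqp8 read 13.79 to 15.16 in M + HFD and 12.80 to 13.52 in F + HFD, a difference of -1.22 ± 0.82 (SE, n = 4 per group). Scnn1a read 11.60 to 12.13 in M + HFD and 11.34 to 11.55 in F + HFD, a difference of -0.36 ± 0.22 (SE, n = 4 per group). Its second probe overlapped, at 7.58 to 8.07 in M + HFD and 7.17 to 7.82 in F + HFD. The groups of Slc26a3 overlapped slightly, at 10.10 to 11.41 and 8.92 to 10.13. Exact permutation tests were run for all genes of the list in each comparison, and their p-values are not adjusted. The share of all genes whose groups did not overlap was not computed for any comparison, so groups without overlap are given as a description. Between F and M on HFD, 14.6% of all genes had an unadjusted limma p under 0.05. Ovariectomy was compared with sham surgery in females in the same way. By limma, 0 of 8 genes were called on LFD, where 1.65% of all genes were, and 0 of 8 on HFD, where 1.96% were. At an unadjusted p under 0.05 alone there were 0 in both, against 3.16% of all genes on LFD and 4.85% on HFD. On HFD, Scnn1a was higher in F(OVX), at 11.77 to 11.94, than in F, without overlap, by 0.35 ± 0.22 (SE, n = 4 per group), exact permutation p = 0.0286. The second Scnn1a probe overlapped here too, at 7.72 to 8.07 in F(OVX) + HFD.

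The next question was which of these genes rose and fell together between mice of the same group. Deviations from the group means were correlated for all 45 pairs, with permutation within groups (two-sided, 100000 resamples) and adjustment over the 45 pairs. No pair passed an adjusted p of 0.05, 10 pairs had an unadjusted permutation p under 0.05 for r, and 2 pairs came nearest the adjusted threshold. Aqp8 and Car4 had r = 0.84 and rho = 0.67 (n = 24 arrays), permutation p = 0.0026 and 0.0060, adjusted p = 0.058 and 0.10. Aqp8 and Slc26a3 had r = 0.77 and rho = 0.58 (n = 24 arrays), permutation p = 0.0017 and 0.0088, adjusted p = 0.058 and 0.10. Without the 2 arrays farthest from the median of Car4 or of Slc26a3, r fell to 0.50 for Aqp8 with Car4 (permutation p = 0.073) and to 0.64 for Aqp8 with Slc26a3 (permutation p = 0.0030), so that the pooled relation of Aqp8 with Car4 no longer passed an unadjusted 0.05. On the 8 arrays of a single slide r was 0.63 in M, 0.91 in F and 0.98 in F(OVX) for Aqp8 with Car4, and 0.39, 0.76 and 0.93 for Aqp8 with Slc26a3. No pair passed an adjusted p of 0.05 on any of these slides. For Aqp8 with Car4 the permutation p of r was 0.28 in M and 0.038 in F. For Aqp8 with Slc26a3 it was 0.23 in M, 0.089 in F and 0.068 in F(OVX). Without M + LFD replicates 1 and 2, Aqp8 and Car4 had r = 0.93 (n = 22 arrays) with a permutation p = 4.5e-04 and adjusted p = 0.020.

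Scnn1a had r = 0.70 with Aqp8 and 0.69 with Car4 (n = 24 arrays), permutation p = 0.027 and 0.055, adjusted p = 0.15 and 0.23. Slc9a3 fell into 2 separate sets of arrays, so its correlations are given over the larger set only. On its 4 low arrays Scnn1g read 7.19 to 8.04 and was well above background on each. Over the other 20 arrays the deviations of Slc9a3 and Scnn1g had r = -0.19 and rho = -0.23, permutation p = 0.46 and 0.37. F(OVX) + LFD replicate 2 and M + HFD replicate 4 also had high Scnn1g, at 8.45 and 8.10, with Slc9a3 at 11.91 and 10.71.

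**Figure D4:**
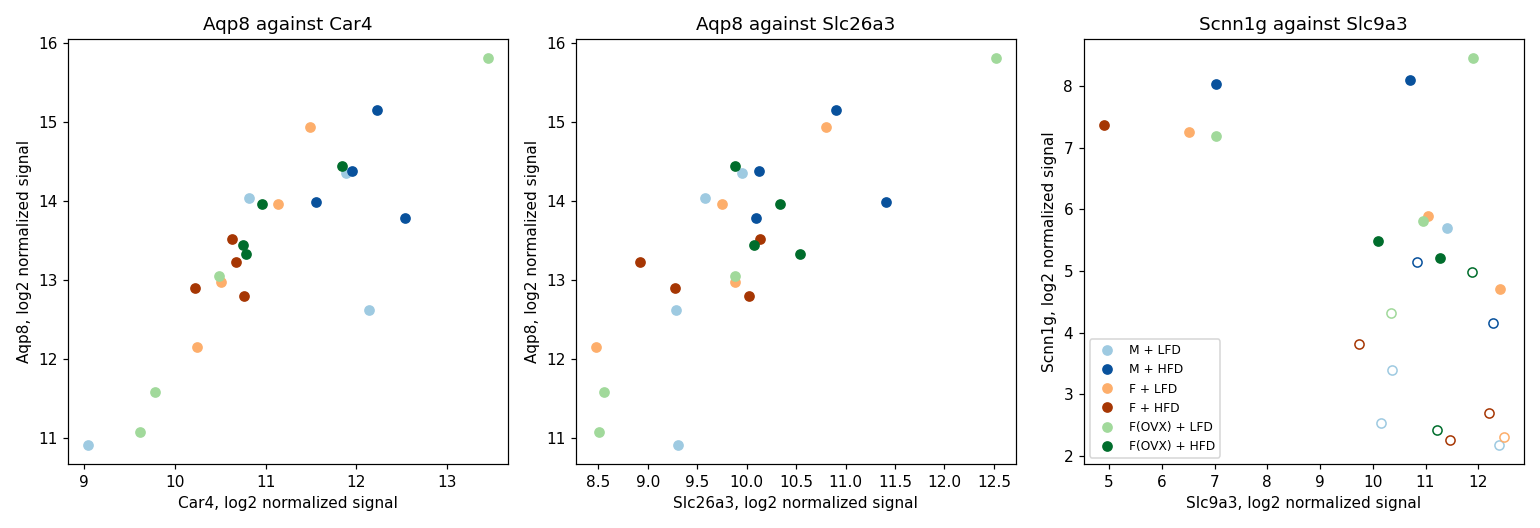
Log2 normalized signal of Aqp8 against Car4, Aqp8 against Slc26a3 and Scnn1g against Slc9a3 on the 24 arrays, colored by group, with open symbols where either gene was not well above background. Aqp8 climbs with Car4 and with Slc26a3 from F(OVX) + LFD replicate 3 (11.07) to replicate 2 (15.81), and the 4 arrays with Slc9a3 at 4.90 to 7.03 have Scnn1g at 7.19 to 8.04.

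For the 4 genes with the widest spread, the genes of most similar signal over the 24 arrays were taken from 14406 genes with a symbol, as a description. Slc9a3 was closest to Ccn3, Dpep1, a membrane dipeptidase, and Chp2, a protein that binds sodium/hydrogen exchangers, but over the 20 arrays that were not low in Slc9a3 r was only 0.36, 0.48 and 0.68. Scnn1g was closest to Pdzk1ip1 (r = 0.91), Alcam (r = 0.91) and Ptpn13 (r = 0.90). Car1 was closest to 4931406C07Rik (r = 0.95), Ugdh (r = 0.94) and Phyh (r = 0.92), which fell to 0.86, 0.84 and 0.81 without the 2 arrays farthest from the median of Car1. Aqp8 was closest to Fam83e (r = 0.78), Zg16 (r = 0.77), a goblet cell lectin, and Cdkn1a (r = 0.75), a cell cycle inhibitor.

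A further list of 107 ion and water transport genes, of which 104 were on the array, covered other exchangers, pumps, potassium and chloride channels, carbonic anhydrases, aquaporins and their hormonal regulators. In M, 9 of 83 tested were DEGs (10.8%, against 4.28% of all genes), 5 higher and 4 lower on HFD. In F, 0 of 86 were DEGs, whether limma or the methods' t-test was used, with 3 at an unadjusted limma p under 0.05, where 2.89% of all genes were. In F(OVX), 6 of 80 were DEGs (7.50%, against 2.18%), 4 higher and 2 lower. These counts include Atp12a and Car3 in M and Fxyd4 in F(OVX), which passed the filter only through the diet where their signal was high. The median difference of the list was -0.04 in M, 0.04 in F and 0.08 in F(OVX). Without M + LFD replicates 1 and 2 the count in M fell to 2 of 83, Car3 and Nr3c2, the mineralocorticoid receptor. Of these only Car3 was among the 9. The count over all genes hardly moved, from 878 to 868, so the higher share of the list in M was not seen without these 2 arrays.

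The genes higher in M + HFD included 2 secretory anion channels and a pump. Atp12a, the colonic proton/potassium pump, was well above background on 1 of 4 M + LFD arrays and all 4 of M + HFD, and read 2.63, 3.26, 4.63 and 9.72 against 10.63, 10.99, 8.21 and 10.86. It was tested only because M + HFD passed the filter, so the mean difference of 5.11 on the log2 scale depends on signals near background and is given as a description. Best2, a bicarbonate channel of colonic goblet cells, was higher by 2.30 ± 0.79, and Ano1, a calcium-activated chloride channel, by 1.53 ± 0.51, each with exact permutation p = 0.086. Both were lowest on the arrays low in Hoxb13, where Best2 read 9.08 and 9.58 and Ano1 11.04 and 11.57. Slc20a1, a phosphate transporter, was higher by 1.05, exact permutation p = 0.086, and Slc8b1, the mitochondrial sodium/calcium exchanger, by 0.84, exact permutation p = 0.0286, with all 4 HFD arrays above all 4 LFD arrays.

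The genes lower in M + HFD were the carbonic anhydrases Car3, Car12 and Car13 and a kinase of the guanylin pathway. Prkg2, a cGMP-dependent kinase that activates CFTR, read 10.85, 11.13, 8.08 and 6.73 in M + LFD and 3.79, 5.43, 8.18 and 5.24 in M + HFD, a difference of -3.54 ± 1.19 (SE, n = 4 per group), exact permutation p = 0.086. Car3, a muscle and fat carbonic anhydrase, changed by -2.55, which is likewise a description, since 4 of 4 M + LFD but 2 of 4 M + HFD arrays were well above background. Car12, a membrane carbonic anhydrase, changed by -2.34 ± 0.83, exact permutation p = 0.057. Without M + LFD replicates 1 and 2 the differences were -1.74 for Prkg2, -1.32 for Car12, 3.0 for Atp12a and 0.82 for Best2. They were 0.66 for Ano1, 1.09 for Slc20a1 and 0.73 for Slc8b1, and none of these genes was called. Car3 was then -3.93 and was called, which stays a description because only 2 of 4 M + HFD arrays were well above background. The summed signal of 7 adipocyte markers was 11.56 to 12.98 in M + LFD and 10.42 to 11.64 in M + HFD, and its part in the Car3 difference was not tested.

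In F(OVX) the DEGs included the peptide guanylin and its receptor. Guca2a encodes guanylin, which triggers fluid secretion, and read 15.77, 15.98, 15.97 and 15.22 on LFD and 16.44, 17.19, 16.81 and 16.13 on HFD, without overlap. The difference was 0.91 ± 0.26 (SE, n = 4 per group), exact permutation p = 0.0286 and adjusted p = 0.999, and the call was lost under 75th percentile scaling (0.78) and in the fit of all 24 arrays. Gucy2c, its receptor, read 9.76, 9.57, 8.71 and 9.62 on LFD and 9.87, 10.44, 9.91 and 10.12 on HFD, a difference of 0.67 ± 0.25 (SE, n = 4 per group), exact permutation p = 0.0286. Its call was lost without LFD replicate 3 or HFD replicates 2 or 4. Of 9 smooth muscle markers tested, 9 were higher on HFD and 3 were DEGs in F(OVX), where 2.18% of all genes were. Their summed signal was 15.5 to 16.7 on LFD and 16.6 to 17.8 on HFD. Other marker lists moved too. Higher on HFD were 10 of 13 surface colonocyte markers (2 DEGs) and 9 of 10 goblet cell markers (1 DEG). So were 8 of 10 epithelial and 10 of 10 proliferation markers (0 DEGs in each), against 0 of 11 immune cell markers. The part of these lists in the results was not tested. Fxyd4, a corticosteroid-induced regulator of the sodium pump, read 9.17, 13.35, 9.17 and 13.05 on LFD and 8.94, 2.48, 5.75 and 9.24 on HFD. Only 3 of 4 HFD arrays were well above background. It was tested only because LFD passed the filter, so the mean difference of -4.58 is given as a description. Car12 was higher by 1.45, Kcnk6, a potassium channel, was higher by 0.60 and Slc8b1 changed by -0.95, with exact permutation p = 0.14, 0.057 and 0.086.

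Slc8b1 and Car12 were called in both M and F(OVX), with opposite signs, but the F(OVX) calls were lost without any 1 of 6 of the 8 arrays for Slc8b1 (-1.21 to -0.60) and any 1 of 4 for Car12 (0.94 to 1.83), and in 1 fit of all arrays for Car12. Since they stand out for these signs, the M minus F(OVX) difference of their diet effects is a description, at 1.80 for Slc8b1 and -3.78 for Car12, and 1.68 and -2.77 without M + LFD replicates 1 and 2. Of the 84 listed genes tested for this difference 11 were called (13.1%, against 6.29% of all genes), including Atp12a at 7.43, Prkg2 at -5.12, Guca2a at -1.69 and Gucy2c at -1.21. The count was 5 of 84 without M + LFD replicates 1 and 2, where 4.99% of all genes were called, and these were Slc8b1, Car12 and, chosen here after their values were seen, Nr3c2, Pdzd3 and Trpm6. Atp12a was then 5.32, Prkg2 -3.32, Guca2a -1.11 and Gucy2c -0.92, none of them called. Fxyd4, whose difference was 10.12, was well above background on 1 of 4 M + LFD and 3 of 4 M + HFD arrays, so that this value, like that of Atp12a, depends on signals near background. Between F(OVX) and F, 1 of 86 was called, which was Slc8b1.

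**Figure D5:**
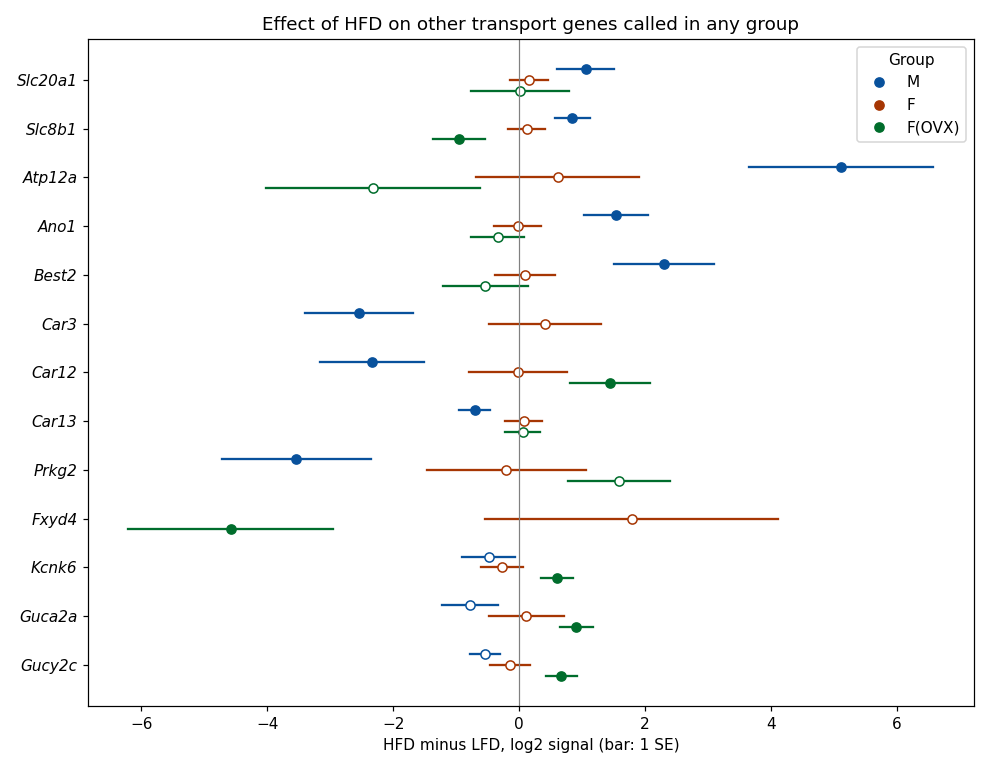
HFD minus LFD difference in log2 signal (horizontal axis) for the 13 other transport genes that were DEGs in M or F(OVX). Points are limma estimates with 1 SE from 4 against 4 arrays, filled where the gene was a DEG. Car3 was not tested in F(OVX) nor Fxyd4 in M. In F, Fxyd4 lies at 1.78 and the other genes between -0.27 and 0.61. Of the 11 genes tested in both, the points of M and F(OVX) lie on opposite sides of 0 for 10, all but Slc20a1, with Car13 at only 0.05 in F(OVX). The genes were chosen for their calls, and the share of opposite signs over all genes was not computed. Of the M calls only Car3 remained without M + LFD replicates 1 and 2.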

How the data were processed

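Linear spot intensities were deposited. For these the authors hybridized colon RNA to Agilent mouse arrays in 1 color, and Agilent Feature Extraction 11.0.1.1 (per the file headers) read the spots and subtracted the background, without normalization between arrays. The deposited median intensities of spots and local background served an alternative, and the deposited flags of 0 or 1 marked outlier spots and spots well above background. The processed intensities of all 59305 non-control spots were log2-transformed and quantile-normalized over 24 arrays, outlier spots were set to missing, and spots of a probe were averaged. Probes were named by matching accessions to a RefSeq gene table of GRCm38.p6 (58.3% of 56605 probes gained a symbol), and no coordinates of probes are given because the array design uses another build. No array had a saturated spot, and the share of probes well above background ran from 40.5% to 61.9%. The number of arrays limits the precision.

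The brightest probe stood for a gene. Diet comparisons were fitted on their own 8 arrays, and differences between diet effects, their average and comparisons of sex and surgery as contrasts in 1 fit of 24 arrays, by the moderated linear model of limma 3.58.1 (R 4.3.3). Exact permutation tests were two-sided over 70 assignments (4900 for differences between diet effects). The scripts were tested on simulated data. Groups and replicate numbers came from the sample titles. The methods name 5 animals per group for the arrays, and the labels give 4. Replicates were separate mice. The labels do not state that arrays of the same number are pairs. Such arrays were compared by their deviations from the group means, with r = 0.25, 0.39, 0.51 and 0.23 in F, 0.01, -0.22, 0.06 and -0.00 in M and 0.31, -0.08, 0.26 and 0.21 in F(OVX). The numbers were read as pairs in F only, where all 4 r were positive, and there for Slc9a3 alone. The differences, intervals and calls given for F come from the fit without pairs, and the replicate block was an alternative.

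The 10 genes, the list of 107 other transport genes, the marker lists and the tests were chosen with earlier results of these data known. Named are all 10 genes with every probe, the other transport genes called in a diet comparison (at most the 8 with the largest change), for the 4 genes with the largest SD the 3 genes of highest correlation, and Hoxb13 and marker genes beside a result. Summed signals of marker lists for epithelium, surface colonocytes, goblet cells, stem cells, proliferation, smooth muscle, fibroblasts, immune cells, adipocytes, neurons and glia and Hox genes were computed per array. Alternatives were scaling to the 75th percentile, normexp background correction (offset 50), other filters on dim probes, the methods' t-test, 1 fit of all arrays, a replicate block, the other probe of a gene and leaving out arrays.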

Additional observations from a re-analysis of the deposited data

Results flagged for a closer look

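Among the 60 sets of 4 arrays (10 genes in 6 groups), 3 held an array far from the other 3, as chance does in about 1 of 20 such sets. Cftr read 10.77 on M + LFD replicate 2, against 11.98 to 12.17 on the other 3 arrays, and this is one of the arrays low in Hoxb13. Cftr read 11.28 on F(OVX) + LFD replicate 4, against 11.63 to 11.69, which is also one of the 4 arrays low in Slc9a3. Scnn1g read 2.42 on F(OVX) + HFD replicate 2, against 4.98 to 5.49, and was not well above background there.

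The diet effect of some genes differed between groups by the limma contrast at an unadjusted p under 0.05. For the 10 genes, the effect on Scnn1a was 0.87 higher in M than in F (log2 scale) and 0.66 higher than in F(OVX), and that on Car1 was -2.46 against F(OVX), with exact permutation p = 0.0086, 0.13 and 0.10. The Scnn1a values come from its brightest probe, which the second probe did not follow. Among the other transport genes, the M minus F difference was 1.56 for Ano1, 2.20 for Best2 and -2.95 for Car3. The M minus F(OVX) difference was 1.80 for Slc8b1, 7.43 for Atp12a, 10.12 for Fxyd4, 1.87 for Ano1, 2.83 for Best2, -3.78 for Car12, -1.69 for Guca2a, -1.21 for Gucy2c and -5.12 for Prkg2. The F(OVX) minus F difference was -1.07 for Slc8b1. No adjusted p was under 0.53. Both M contrasts share the M arrays, which include the 2 arrays low in Hoxb13. Without these 2, an alternative chosen after seeing the data, the other transport genes named here that were still called were Car3 (M minus F, -4.34) and Slc8b1 and Car12 (M minus F(OVX), 1.68 and -2.77). Only 2 of 4 M + HFD arrays were well above background for Car3, so its value is a description.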

How the results depend on the processing

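The difference between diets in M was called for Slc26a3 and Scnn1a under 75th percentile scaling, normexp correction, both other filters, the methods' t-test, the replicate block and the removal of any 1 array. Of the 249 counts under alternatives, 197 stayed within 1.5 times. In M, the count of the 10 genes was 4 with no filter on dim probes (Scnn1b and Scnn1g added), 1 with the other probe of each gene, 0 without M + LFD replicates 1 and 2 and 2 to 3 without any 1 array. That of other transport genes was 2 without replicates 1 and 2 and 6 to 15 without any 1 array. In F, the 10 genes gave 1 (Slc9a3) with the replicate block, and the other transport genes 1 with no filter and 0 to 2 without 1 array. In F(OVX), the 10 genes gave 1 (Car1) with the replicate block and 0 to 3 without 1 array, and the other transport genes 2 with the methods' t-test, 2 in 1 fit of all arrays and 2 to 9 without 1 array. The block changed no other count of the 10 genes by over 1.5 times except M against F(OVX), which fell to 0. The differences gave 2 with no filter between M and F, where leaving out 1 array gave 1 to 2, and 1 without M + LFD replicates 1 and 2 between M and F(OVX), where leaving out 1 array gave 0 to 2. Between F(OVX) and F it gave 0 to 2. The average gave 0 to 3, F against M 0 without replicates 1 and 2 and 0 to 2 without 1 array on LFD, and 2 with no filter and 0 to 1 without 1 array on HFD. F(OVX) against F gave 0 to 1 on LFD without 1 array. For correlations, 8 of 45 pairs passed without subtracting group means and 3 without M + LFD replicates 1 and 2, an alternative chosen after seeing the data, as was leaving out the 4 arrays low in Slc9a3, which gave 0. In F(OVX), where 3 of 4 arrays correlated best with their own number against 2 of 4 in F and 0 of 4 in M, the numbers were not taken as pairs. In F and F(OVX) the replicate block moved the count over all genes from 264 to 589 and from 419 to 554, and in M from 878 to 953.

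Signs turned for uncalled differences. Car1 in M was 0.24 without M + LFD replicates 1 and 2, Slc12a2 in F was 0.0034 under 75th percentile scaling, and Scnn1a in F was 0.18 with the other probe. Without 1 array, ranges that crossed 0 were -1.56 to 0.20 (Slc9a3 in M), -2.41 to 0.52 (Slc9a3 in F), -0.56 to 0.22 (Slc26a3 in F), -0.85 to 0.082 (Aqp8 in F), -0.22 to 0.50 (Car1 in F), -0.11 to 1.22 (Slc26a3 in F(OVX)), -0.16 to 1.12 (Car4 in F(OVX)) and -0.20 to 0.27 (Scnn1a in F(OVX)). The causes were not tested, beyond the number of arrays left and the probes added by a filter. Signal over background limits Scnn1b, Scnn1g and the second Slc9a3 probe.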

Other observations

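Summed signals of marker lists were as follows over the 24 arrays. Goblet cell markers lay between 18.6 and 19.5, and stem cell and Wnt target genes between 12.2 and 13.3. Proliferation genes lay between 13.2 and 15.3, smooth muscle between 15.5 and 18.1, fibroblast genes between 14.2 and 16.3 and immune cell genes between 14.1 and 16.0. Adipocyte genes lay between 10.4 and 12.98, enteric neuron and glia genes between 9.2 and 12.6, and posterior Hox genes between 7.8 and 14.98. The smooth muscle sum was 18.1 on F + LFD replicate 3 and 17.7 on F + HFD replicate 3, which were among the arrays low in Slc9a3, and 17.2 and 16.7 on the other arrays low in Slc9a3. Guca2a read 14.61 to 15.22 on those 4 arrays and 15.77 to 17.29 on the other 20.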
